A study of Mus musculus with 18 samples.

Results

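The regions described here bound the transcription factor GATA6 late in a differentiation time course and acquired pluripotency transcription factors (PTFs) at positions that lacked them before. They are the 1435 regions, of 42403 in the deposited table, that the table classes both as Late in GATA6 binding and as ectopic for PTFs. The members were therefore chosen by measured GATA6 binding over time and by called peaks of OCT4, SOX2 or ESRRB, and both properties are given as a description only. They made up 10.1% of the 14243 Late regions, 20.4% of the 7038 regions with ectopic PTFs and 3.38% of all regions. In the columns used here both classes come as names without a value, so members close to a class boundary were not picked out. Those columns also do not say which PTF was called at a region or at what time. The signal columns of the table, which might bear on these points, were not used.

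The cells were KH2 mouse embryonic stem (ES) cells of C57BL/6 x 129/Sv genotype, grown on feeder cells in serum with LIF and carrying a Gata6 cassette that doxycycline (Dox, 1 µg/mL) switches on. The series has 18 MNase-seq libraries in 6 groups of 3: 1 group without Dox (d0) and groups treated for 8, 16, 24, 48 and 96 h. Every group carries the cassette, so the untreated cells differ from the others in Dox and time only, and the cells express GATA6 from a transgene on top of their own gene. None of the columns used here holds a value of an MNase library, so no comparison between the 6 groups was made and nothing below measures nucleosomes. The columns used give classes, positions and motif matches per region with no read counts, and the sequencing depth of each library behind them is unknown here.

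GATA6 is the zinc finger factor that starts primitive endoderm (PrE) differentiation, and it binds the core GATA, usually read as GATAA. SOX17 is an endoderm factor of the SOX family that follows GATA6 in this lineage. In ES cells, OCT4 pairs with SOX2 on a canonical element in which 1 base separates the SOX core from the OCT core, whereas OCT4 with SOX17 is known to prefer a compressed element in which the 2 cores touch. ESRRB is an orphan nuclear receptor that works with them in the pluripotency network.

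Because both kinds of element can be read directly from the genome, the sequences are shown first. A region was searched for the SOX core TTGT followed directly by the OCT core ATGCA (compressed) or by 1 base and then ATGCA (canonical), on both strands. A compressed pair was present in 40 of the 1435 members (2.79%, 95% Wilson interval 2.05 to 3.77), where 0.875% of all regions held one. A canonical pair was present in 6 members (0.418%, 0.192 to 0.909) against 0.915% of all regions. No member held both. The 10 compressed pairs nearest to a GATA6 summit, the base with the highest GATA6 signal, are printed with the pair in capitals, 5′ to 3′ on the strand of the pair, and were chosen after their values were seen (build GRCm38/mm10).

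chr10:20935405-20935748 (between genes, 17015 bp from the Ahi1 start, minus strand, pair 1 bp from the summit): gtctctgttctTTGTATGCAcattattctc
chr2:6221849-6222542 (intron of A230108P19Rik, minus strand, 7 bp): gattgtttcctTTGTATGCAcagcaagtcc
chr16:19065900-19066526 (within 1 kb of a transcript start, in 2010309G21Rik, minus strand, 8 bp): caaatggcctaTTGTATGCAggaggtcagg
chr13:56991931-56992389 (between genes, plus strand, 10 bp): gaaagtcttaTTGTATGCAaatggtcacat
chr1:165854041-165855116 (intron of Cd247, plus strand, 13 bp): tgtggttacaTTGTATGCAttggttcactc
chr2:133617129-133617736 (between genes, 65359 bp from the Bmp2 start, plus strand, 13 bp): ttaacactgtTTGTATGCAgttgggtagtt
chrX:133602872-133603211 (intron of Pcdh19, minus strand, 21 bp): accacaattcaTTGTATGCAcatatgtgct
chr1:134011349-134011695 (between genes, 25753 bp from the Fmod start, plus strand, 22 bp): tcaggatacaTTGTATGCAtgtgtaattat
chr5:72697831-72698148 (intron of Txk, plus strand, 24 bp): taaagatgcaTTGTATGCAaatactctacc
chr6:73065176-73066167 (intron of Dnah6, minus strand, 25 bp): tcccgtgctcaTTGTATGCAgagcagtctg

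These runs share the pair because the search asked for it, and differ around it. A C followed by A or T stood directly before the pair, as in the full SOX core, in 15 of the 40 members with a pair (37.5%), counting the pair nearest to the summit in each, and in 3 of the 49 Late regions without PTFs that hold one (6.12%). The pair went on into the full octamer ATGCAAAT in 4 of the 40 (10.0%) and in 3 of the 49 (6.12%), and the chr13 and chr5 runs above are examples. Pairs lay at a median of 45 bp from the summit (1 to 633), 21 of 40 within 50 bp. A GATA6 motif was present in 32 of the 40 regions, at a median of 50 bp from the pair, within 50 bp in 16 and within 10 bp in 4. One region, in the Cd247 intron, held 7 pairs and is counted once.

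The members with a compressed pair are described by counts, without a test. SOX17 was bound at 38 of 40 (all members 87.7%), chromatin was closed at d0 in 35 (all members 72.6%), and 16 lay in facultative heterochromatin (all members 24.3%) and 13 in the state that the table calls naive (all members 28.4%). GATA6 binding after Oct4 knockdown was lower in 5 (all members 6.13%), higher in 5 (all members 18.6%) and unchanged in 30. Their summits were in introns in 19, between genes in 16 and within 1 kb of a transcript start in 5. The only member within 100 kb of the Gata6 start, in a Gata6 intron (chr18:11081376-11082563), was among them.

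Each property was next compared with 3 groups of regions that share either the GATA6 class or the PTF class: Late regions without PTFs (12558), Early&Constant regions with ectopic PTFs (4314, Early below) and Transient regions with ectopic PTFs (1289). Late regions bound by PTFs from d0 were few (250, of which 7.2% were closed at d0) and were not tested against the members, so their shares are given without a test where they bear on a result. The tests come from 1 logistic model per property over all 42403 regions with standard errors clustered by chromosome, and the p-values are two-sided Wald p-values adjusted over 72 tests by the Benjamini-Hochberg procedure. Regions are the units, not libraries, so errors cover the spread between chromosomes and not between replicate experiments. Differences are log2 odds ratios, positive where the members had more.

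The compressed pair set the members apart from Late regions without PTFs, of which 0.39% held one. The log2 odds ratio was 2.87 ± 0.271 (SE) with an adjusted p of 1.08e-08, in the same direction on 18 of 20 chromosomes. Of the 250 Late regions with PTFs from d0, 4 held one (1.6%, 0.624 to 4.04). Against the other ectopic regions no difference passed the test over whole regions, with 2.27% in Early (0.30, 95% interval -0.08 to 0.69, adjusted p = 0.145) and 2.56% in Transient (0.13, -0.55 to 0.81, adjusted p = 0.733), the latter turning to -0.60 (adjusted p = 0.133) among SOX17-bound regions. In summit windows, the summit base with 100 bp on each side and so of 1 length in every group, 28 members (1.95%, all regions 0.41%) held a compressed pair, against 0.127% of Late regions without PTFs, 1.14% of Early and 1.78% of Transient ectopic regions. There the members exceeded Early ectopic regions (0.79, adjusted p = 0.0104). Without the letters, with the cores of the recovered OCT4:SOX2 scoring matrix, an alternative added after seeing the data, 1.53% of member windows held the compressed form and 0.0637% of Late regions without PTFs, and the difference from Early was 1.31 (adjusted p = 0.00997).

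The canonical pair was rare at these summits. A single member (0.0697%, all regions 0.521%) held one in its summit window, and none did with the matrix cores. The share of windows was also low in Early ectopic regions (0.0927%) and in Late regions without PTFs (0.127%), so this rarity is not particular to the members. Transient ectopic regions held it in 0.776% of windows, a difference of -3.49 on the log2 scale (adjusted p = 0.0376) that rests on 1 member, whereas over whole regions the difference did not pass (-1.39, adjusted p = 0.135). Other spacings, with 2 to 10 bases between the cores, were each found in 0.209% to 0.767% of member windows, below the compressed form in every case. The octamer alone occurred in 37 member windows (2.58%, all regions 3.0%), in 0.629% of Late regions without PTFs, 3.01% of Early and 7.99% of Transient ectopic regions.

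**Figure D1:**
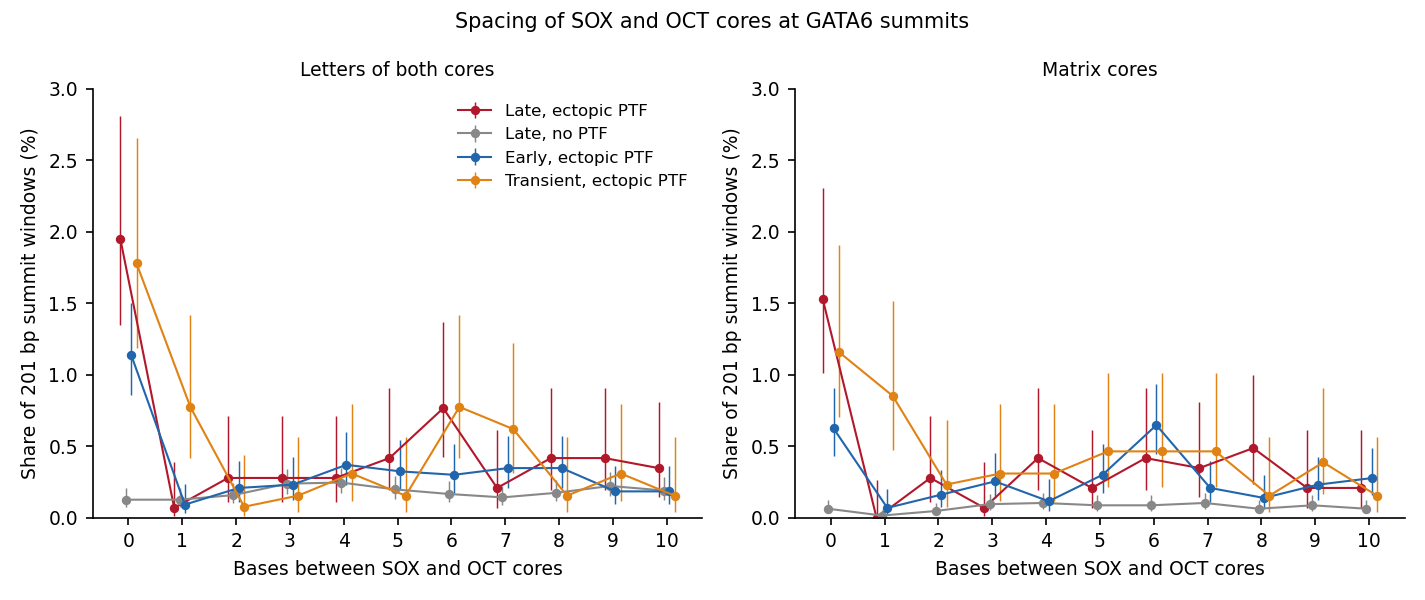
Share of summit windows (summit with 100 bp on each side, percent, y axis) that hold a SOX and an OCT core at each spacing in bases (x axis), by letters on the left and by matrix cores on the right, for 4 groups of regions with 95% Wilson intervals. The 1435 Late regions with ectopic PTFs reach 1.95% at a spacing of 0 bases and 0.0697% at 1 base in the left panel.

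SOX17 was bound at most members. A SOX17 peak was present at 1259 of 1435 members (87.7%, 85.9 to 89.3), against 44.5% of all regions. The share was 48.9% in Late regions without PTFs (log2 odds ratio 2.90 ± 0.094, adjusted p = 1.75e-16, 20 of 20 chromosomes) and 41.3% in Transient ectopic regions (3.34 ± 0.139, adjusted p = 1.2e-14, 20 of 20). It was 86.3% in Early ectopic regions, a difference that did not pass the test (0.18, -0.02 to 0.37, adjusted p = 0.0954), and 80.0% in Late regions with PTFs from d0. Members were wider than Late regions without PTFs and narrower than Early ectopic regions, with mean widths of 681 bp (SD 346), 453 bp and 887 bp. Width derives from the same GATA6 peaks whose binding over time chose the members. Fits with width as a covariate, here and below, are therefore given as alternatives and not as corrections. With log2 width as a covariate the difference from Early became 0.77 (adjusted p = 1.62e-07), and it also passed among closed regions (0.60, adjusted p = 0.000586) and among summits over 1 kb from a transcript start (0.42, adjusted p = 0.00494).

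The 176 members without a SOX17 peak are set beside the 1259 bound ones without a test. They had a median width of 417 bp against 632 bp in the bound members, 43 (24.4%, bound 7.86%) were in the promoter state, and 36 (20.5%, bound 4.77%) were accessible at d0. A SOX17 motif lay in the summit window of 56 of them (31.8%, bound 56.6%). GATA6 binding after Oct4 knockdown was higher in 1 of the 176 (0.568%, bound 21.1%) and lower in 10 (5.68%, bound 6.2%).

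Most members were closed before Dox. By the ATAC-seq class of untreated cells, 1042 members (72.6%, all regions 61.3%) were closed, 297 (20.7%, all regions 31.2%) moderately accessible and 96 (6.69%, all regions 7.43%) accessible. Accessible or moderate chromatin was more frequent than in Late regions without PTFs, at 27.4% against 16.1% (0.98 ± 0.103, adjusted p = 3.96e-08, 19 of 20 chromosomes), and less frequent than in Transient ectopic regions, at 46.2% (-1.18 ± 0.116, adjusted p = 1.37e-08). The members also exceeded Early ectopic regions (22.3%; 0.40 ± 0.113, adjusted p = 0.00382), but not among summits over 1 kb from a transcript start (0.12, adjusted p = 0.422) or among SOX17-bound regions (0.23, adjusted p = 0.106). Of the Late regions with PTFs from d0, 31.6% were accessible and 61.2% moderately accessible, without a test.

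The 96 accessible members were nearly all promoters. Of these, 85 were in the promoter state and 81 had the summit within 1 kb of a transcript start. GATA6 motifs were in 30 of their summit windows (31.2%), and the mean GC content of those windows was 56.3% against 42.5% in closed members. GATA6 binding decreased after Oct4 knockdown in none of them, which with 96 regions allows a share of up to 3.85% (Wilson), and increased in 3.

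Histone states of ES cells, which the authors derived from public chromatin marks, spread the members over all 7 classes. The naive state, as the table names it without defining it, held 408 members (28.4%, all regions 18.0%) and facultative heterochromatin, the Polycomb-marked state, 349 (24.3%, all regions 22.3%). Primed enhancers held 198 (13.8%, all regions 16.9%), promoters 142 (9.9%, all regions 6.88%), poised enhancers 135 (9.41%, all regions 14.6%), constitutive heterochromatin 121 (8.43%, all regions 10.2%) and active enhancers 82 (5.71%, all regions 11.2%). The most frequent combination was SOX17-bound, closed and naive, with 369 members (25.7%), followed by SOX17-bound, closed and facultative heterochromatin with 312 (21.7%).

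Against Late regions without PTFs, members lay less often in facultative heterochromatin (24.3% against 36.1%; -0.82 ± 0.104, adjusted p = 5.57e-07, 20 of 20 chromosomes) and more often in the promoter state (9.9% against 4.16%; 1.34 ± 0.184, adjusted p = 1.43e-06) and in active enhancers (5.71% against 2.54%; 1.22 ± 0.231, adjusted p = 9.01e-05). In Late regions with PTFs from d0 these 3 shares were 0.4%, 24.0% and 31.6%, without a test, so the last 2 are not particular to the members. The naive state was also more frequent (28.4% against 21.6%; 0.53, adjusted p = 0.00033), but with width as a covariate this was 0.10 (adjusted p = 0.4). The lower share of constitutive heterochromatin (8.43% against 13.1%; -0.71, adjusted p = 2.62e-05) became 0.09 with that covariate (adjusted p = 0.557). For facultative heterochromatin the value with width was -0.52 (adjusted p = 0.00035), and among closed regions the values were 0.43 for promoters (adjusted p = 0.838) and 1.07 for active enhancers (adjusted p = 0.126), neither past the test.

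Against the other ectopic regions the members lay on either side. The naive state held 33.1% of Early (-0.32, adjusted p = 0.00656) and 12.7% of Transient ectopic regions (1.45, adjusted p = 1.11e-08), and the first difference was lost with width as a covariate (-0.02, adjusted p = 0.94), among closed regions (-0.20, adjusted p = 0.0943), among SOX17-bound regions (-0.23, adjusted p = 0.0705) and among summits over 1 kb from a transcript start (-0.18, adjusted p = 0.0984). Poised enhancers held 20.3% of Transient ectopic regions against 9.41% of members (-1.30 ± 0.159, adjusted p = 3.36e-07), and active enhancers 10.3% (-0.92 ± 0.187, adjusted p = 0.000172), which turned to 1.00 among closed regions (adjusted p = 0.672). The promoter state held 4.96% of Early ectopic regions (1.07 ± 0.21, adjusted p = 0.000124), and this turned to -0.31 (adjusted p = 0.88) among closed regions.

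**Figure D2:**
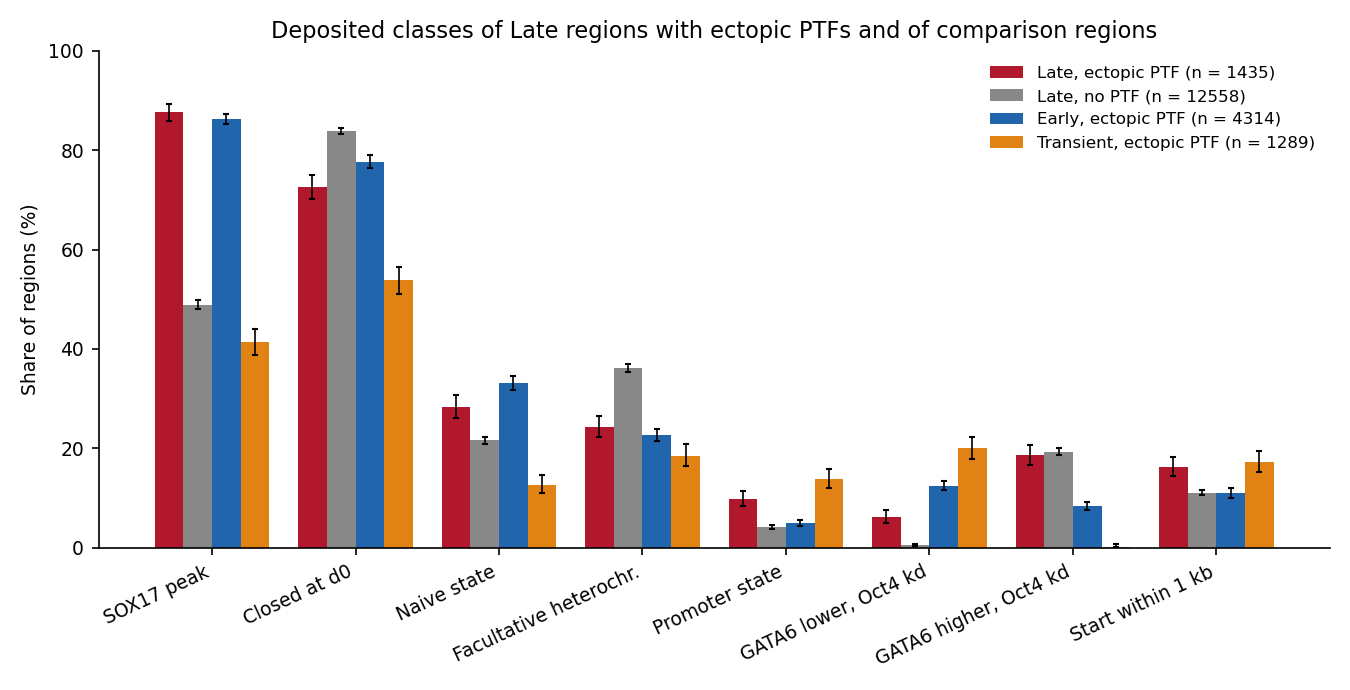
Share of regions (percent, y axis) in each of 8 deposited or annotated classes (x axis) for the members and 3 comparison groups, with 95% Wilson intervals as error bars. SOX17 peaks are at 87.7% in the members and 86.3% in Early ectopic regions, and at 48.9% and 41.3% in the other groups.

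The response of GATA6 binding to siRNA knockdown of Oct4 was taken from the class that the authors assigned. Decreased and increased name a change in the amount of GATA6 signal, not the loss or gain of a peak. The knockdown was started together with Dox, and GATA6 was measured at 48 h. This class and the GATA6 clusters both rest on GATA6 binding, though from different libraries. Contrasts between clusters, here and below, are therefore not independent of how the groups were chosen, and the size of that effect was not tested. Among the members, GATA6 binding decreased in 88 (6.13%, 5.0 to 7.49, all regions 6.25%), increased in 267 (18.6%, 16.7 to 20.7, all regions 8.57%) and was unchanged in 1080. The decreased share was close to that of all regions and above that of Late regions without PTFs, at 0.51% (3.67 ± 0.236, adjusted p = 1.72e-11, 20 of 20 chromosomes). It was below Early (12.5%; -1.13 ± 0.233, adjusted p = 0.00021) and Transient ectopic regions (20.0%; -1.94 ± 0.217, adjusted p = 9.83e-08). In Late regions with PTFs from d0, binding decreased in 0.4% and increased in 18.4%.

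Increased binding ran the other way among ectopic regions, with 18.6% of members, 8.3% of Early (1.34 ± 0.144, adjusted p = 5.6e-08) and 0.233% of Transient regions, where only 3 regions were in this class (6.61 ± 0.853, adjusted p = 6.21e-07). Against Late regions without PTFs (19.3%) no difference passed the test (-0.06, -0.29 to 0.17, adjusted p = 0.637). This changed with width as a covariate, to -1.11 (adjusted p = 1.59e-07), and among SOX17-bound regions, to -0.90 (adjusted p = 3.02e-06). Width moved with this class among the members too, and its part in the difference was not tested further.

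The make-up of the members with increased and with decreased binding is given as counts with no test. Of the 267 with an increase, 266 were SOX17-bound, 219 were closed at d0 and 107 naive, and their median width was 857 bp. Of the 88 with a decrease, 78 were SOX17-bound, 85 were closed, 34 each were naive and in facultative heterochromatin, and their median width was 538 bp. The share with an increase differed by width, from 15 of the 364 narrowest members (4.12%, up to 438 bp) to 42 of 356 (11.8%), 71 of 356 (19.9%) and 139 of the 359 widest (38.7%, 845 bp and above), while the share with a decrease went from 7.42% to 3.9%. The increased members held a SOX17 motif at the summit in 70.0% and the decreased ones in 48.9%. The compressed pair was present in 5 of the 88 decreased (5.68%, 2.45 to 12.6) and 5 of the 267 increased members (1.87%, 0.802 to 4.31), and these intervals overlap.

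**Figure D3:**
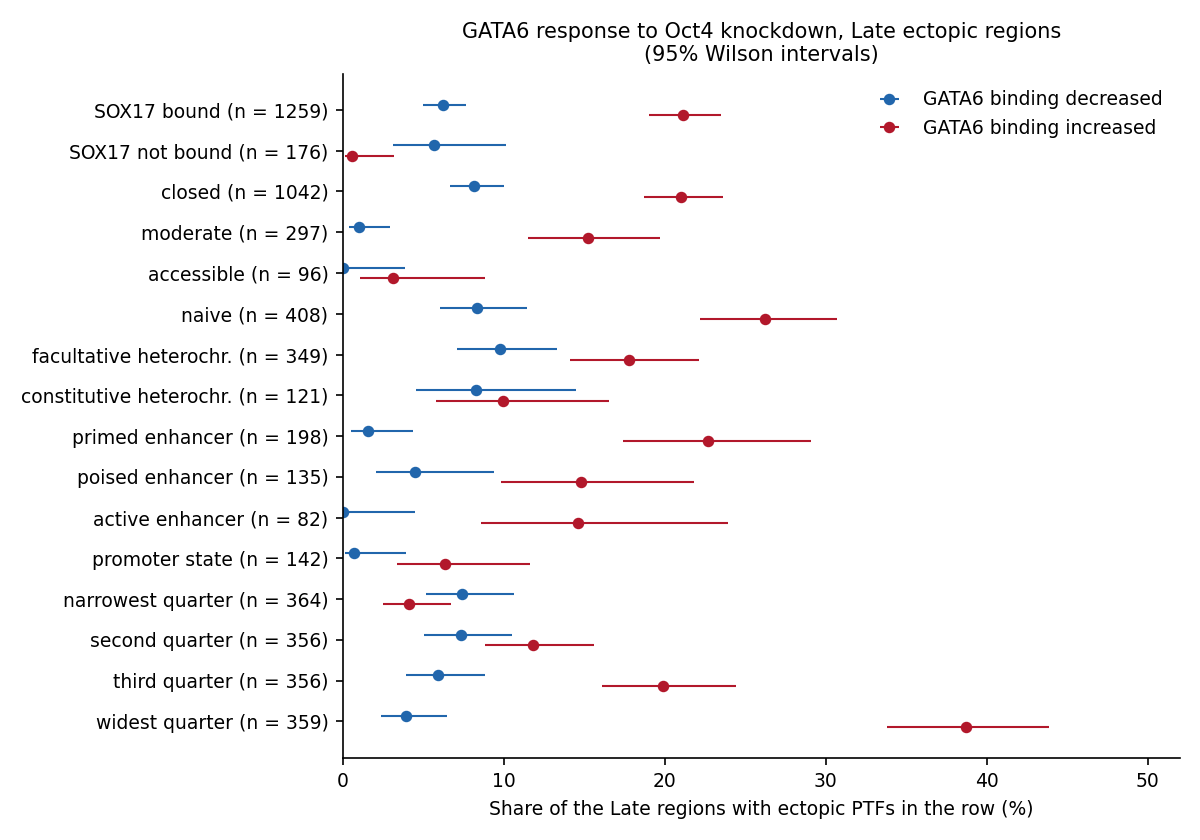
Share of members (percent, x axis) with decreased or increased GATA6 binding after Oct4 knockdown, by SOX17 class, d0 accessibility, histone state and region width (rows), with 95% Wilson intervals. Increased binding goes from 4.12% in the narrowest to 38.7% in the widest members.

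The members with the highest OCT4:SOX2 motif score in each response class are shown so that their motifs can be compared (motif in capitals, on its own strand). Whether these motifs bear on the response was not tested. In order, the first 3 had decreased and the last 3 increased GATA6 binding.

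chr10:79295169-79295623 (between genes, 47718 bp from the Vmn2r81 start, score 16.27, minus strand): aaacaatcCTTTTATATGCAAATgtatggt
chr3:139175338-139175630 (between genes, 30227 bp from the Stpg2 start, score 15.25, plus strand): actttcaCATTCACATGCTAAGaaacatat
chr15:56794518-56795309 (between genes, 100505 bp from the Has2 start, score 14.59, plus strand): ctatctcCTTTGTTATGCTAGGaaataact
chr11:46062128-46062944 (intron of Adam19, score 16.16, minus strand): caatgaatTATTCAGATGCAAATaagaatc
chr2:75919750-75921374 (intron of Agps, score 15.31, minus strand): tgttgttgTTTTCTTATGCTAAGgatttga
chr7:100126221-100127293 (between genes, 5257 bp from the Pold3 start, score 14.88, minus strand): agccctcaCAGTGTCATGCAAAGggtgtgc

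All 6 match 1 matrix, whose spacing is the canonical one of OCT4 with SOX2, and their scores overlap between the classes. The motif lay 62, 126 and 341 bp from the summit in the decreased and 644, 292 and 284 bp in the increased members. That of the Adam19 region lies partly outside it, running to position 46062952 where the region ends at 46062944. The decreased regions were 293 to 792 bp wide and the increased ones 817 to 1625 bp, and SOX17 was bound at 5 of the 6, the exception being the region near Has2.

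GATA6 motifs were less frequent in the members than over all regions. A GATA6 motif match (FIMO, scored by the authors) was present in 1202 members (83.8%, all regions 89.7%), a SOX17 motif in 1120 (78.0%, all regions 69.2%), an OCT4:SOX2 motif in 1059 (73.8%, all regions 71.5%) and an ESRRB motif in 494 (34.4%, all regions 36.3%). None of the 4 was found in 28 members (1.95%, all regions 1.43%). GATA6 motifs were present in 86.6% of Late regions without PTFs (-0.32, adjusted p = 0.0145), 96.6% of Early (-2.47 ± 0.153, adjusted p = 1.16e-11) and 85.3% of Transient ectopic regions (-0.17, -0.46 to 0.13, adjusted p = 0.307). With width as a covariate the first and the last became -1.37 (adjusted p = 1.3e-09) and -0.48 (adjusted p = 0.00319). The first no longer passed among closed regions (-0.19, adjusted p = 0.308) or SOX17-bound regions (-0.24, adjusted p = 0.091), where the last turned to 0.30 (adjusted p = 0.13). Late regions with PTFs from d0 held a GATA6 motif less often than the members did, in 66.8% (60.7 to 72.3), a difference that was not tested. Per length, members held 3.28 GATA6 motifs per kb (SD 2.55) against 4.76, 4.26 and 3.67 in Late regions without PTFs and in Early and Transient ectopic regions, and 2.52 in Late regions with PTFs from d0.

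In the summit windows a GATA6 motif was present in 896 members (62.4%, all regions 77.1%), lower than in Late regions without PTFs (75.9%; -0.92 ± 0.0888, adjusted p = 1.2e-08, 20 of 20 chromosomes), Early ectopic regions (86.7%; -1.98 ± 0.0845, adjusted p = 1.28e-14, 20 of 20) and Transient ectopic regions (69.3%; -0.44 ± 0.115, adjusted p = 0.00206, 16 of 20). In Late regions with PTFs from d0 the share was 46.8% (40.7 to 53.0). In the same windows, SOX17 motifs went the opposite way, in 769 members (53.6%, all regions 43.1%) against 49.7% (0.22, adjusted p = 0.0119), 45.5% (0.46, adjusted p = 6.41e-05) and 35.8% (1.05, adjusted p = 1.2e-08). With only strong SOX17 matches, at or above the median best score, the first of these was 0.15 (adjusted p = 0.237). Counting instead only regions whose deposited best SOX17 motif starts within 100 bp of the summit, it turned to -0.27 (adjusted p = 0.00373), so the direction against Late regions without PTFs depends on which motifs are counted. Late regions with PTFs from d0 held a SOX17 motif in 51.2% of summit windows (45.0 to 57.3, not tested), close to the members.

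OCT4:SOX2 motifs at the summit hardly separated the groups, with 511 members (35.6%, all regions 41.8%) against 33.4% of Late regions without PTFs (0.14, adjusted p = 0.112), 36.5% of Early (-0.06, adjusted p = 0.599) and 40.7% of Transient ectopic regions (-0.31, adjusted p = 0.00285), the last of which was -0.01 (adjusted p = 0.909) with 200 bp on each side. Counting only matches at or above the median best score, the difference from Late regions without PTFs was 0.53 (adjusted p = 9.05e-05). Over whole regions, 73.8% of members held an OCT4:SOX2 motif, against 59.1% of Late regions without PTFs (0.96, adjusted p = 9.03e-09). Early ectopic regions had 83.3% (-0.83, adjusted p = 5.57e-07) and Transient ectopic regions 70.8% (0.22, adjusted p = 0.0904). The differences from Late regions without PTFs and from Early turned when only best motifs within 100 bp of the summit were counted. Per length, members held 2.48 OCT4:SOX2 motifs per kb. The values were 2.29, 2.53 and 2.58 in Late regions without PTFs and in Early and Transient ectopic regions. ESRRB motifs were in 160 member windows (11.1%, all regions 14.9%), a share below that of Transient ectopic regions (14.4%; -0.42, adjusted p = 0.0274) and with no difference past the test from the other groups. That difference was lost with 200 bp on each side (-0.12, adjusted p = 0.407) and with strong matches only (-0.36, adjusted p = 0.212). GATA6 and SOX17 motifs occurred together in 476 windows (33.2%, all regions 32.1%), and GATA6 with OCT4:SOX2 in 337 (23.5%, all regions 31.9%). Windows with none of these 3 motifs made up 11.8% of members (169), against 6.87% of all regions, 8.16% of Late regions without PTFs, 4.54% of Early and 13.3% of Transient ectopic regions.

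The GATA6 matches of members were also weaker. The best GATA6 score was 9.41 ± 2.05 (SD, n = 1202), which is 0.52 below Late regions without PTFs (difference -0.52, 95% interval -0.67 to -0.36), 1.61 below Early (-1.61, -1.74 to -1.48) and 0.67 below Transient ectopic regions (-0.67, -0.89 to -0.46). The best SOX17 score, 10.1 ± 1.56 (n = 1120), was 0.22 above Late regions without PTFs (0.11 to 0.34), 0.51 above Transient ectopic regions (0.38 to 0.63) and within its interval of Early (0.06, -0.05 to 0.18). The best OCT4:SOX2 score was 8.23 ± 2.33 (n = 1059), above Late regions without PTFs by 0.47 (0.27 to 0.68) and below Early (-0.23, -0.44 to -0.02) and Transient ectopic regions (-0.40, -0.65 to -0.15). Against Late regions without PTFs, the SOX17 difference was 0.06 with width as a covariate and -0.03 for the mean score of all motifs in a region, and the OCT4:SOX2 difference was 0.08 for that mean. The best GATA6 motif lay at a median of 84 bp from the summit in members, at 48, 54 and 57 bp in Late regions without PTFs and in Early and Transient ectopic regions, and at 118 bp in Late regions with PTFs from d0.

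**Figure D4:**
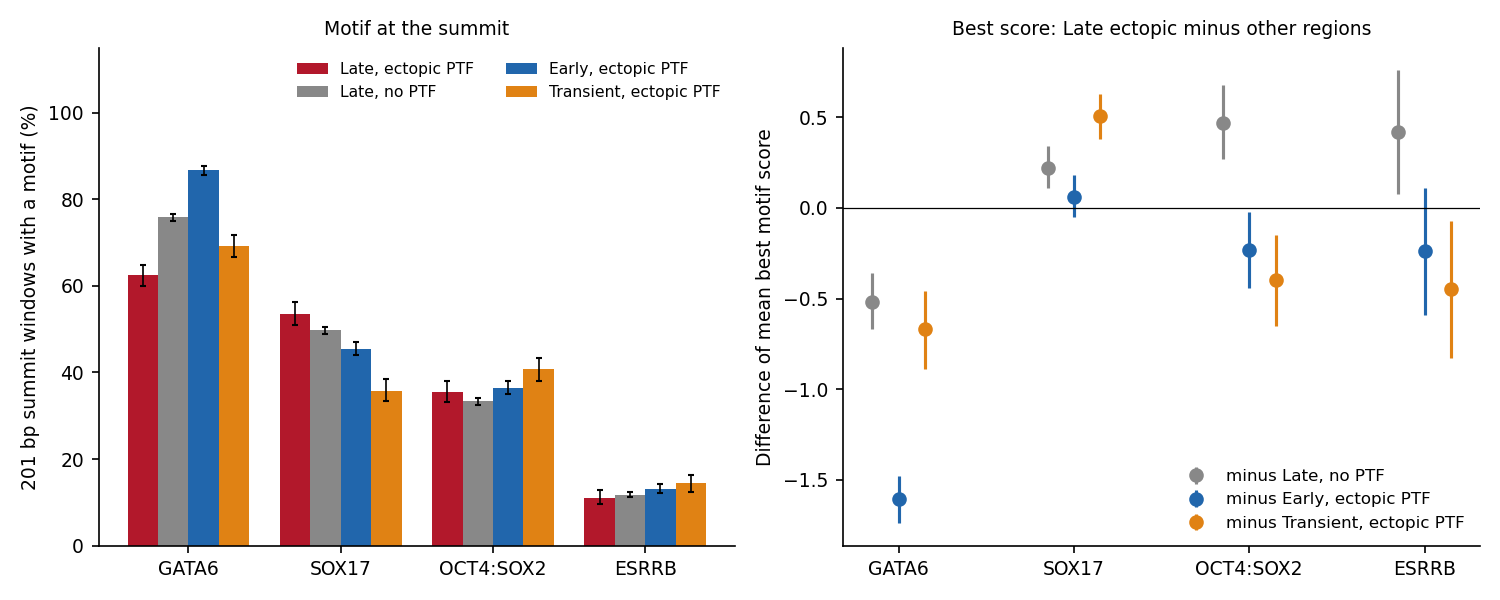
Left, share of summit windows (percent) with each of 4 motifs, with 95% Wilson intervals, and right, difference of the mean best motif score between the members and each comparison group, with 95% intervals. GATA6 motifs are at 62.4% in the members and 86.7% in Early ectopic regions, and the score difference between these is -1.61.

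The member with the best match to each matrix shows what these scores mean in letters (motif in capitals). All 3 were SOX17-bound and lay between genes.

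GATA6, score 15.08, chr6:53781253-53781829, plus strand, 39370 bp from the Tril start: agtcagatGACAGATAAGAGAtaggtaggc
SOX17, score 12.83, chr1:41658584-41659242, minus strand, 853298 bp from the Tmem182 start: ccttgtcctagCCCATTGTCaagtaatctt
OCT4:SOX2, score 17.76, chr10:95600577-95601029, plus strand, 36729 bp from the Nudt4 start: aaatcatTTTTGTCATGCTAATtttttccc

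The SOX17 score was shared by 23 members, of which the first by position is shown. That region held no GATA6 motif, was closed and naive, and had increased GATA6 binding after Oct4 knockdown, while the other 2 were unchanged.

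By position, 232 member summits (16.2%, all regions 12.4%) lay within 1 kb of a transcript start, 654 (45.6%, all regions 46.0%) in introns, 517 (36.0%, all regions 38.5%) between genes, 20 (1.39%, all regions 1.89%) in other exons and 12 (0.836%, all regions 1.22%) in exons annotated as UTR (GENCODE M21). The promoter share was above that of Late regions without PTFs (11.1%; 0.62 ± 0.139, adjusted p = 0.000482) and Early ectopic regions (11.0%; 0.64 ± 0.156, adjusted p = 0.00119), but among closed regions these were 0.03 (adjusted p = 0.927) and 0.15 (adjusted p = 0.672). Transient ectopic regions had 17.3% (-0.12, -0.43 to 0.19, adjusted p = 0.509), and Late regions with PTFs from d0 had 26.8% (21.7 to 32.6, not tested).

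Members lay near Early regions more often than Late regions without PTFs and Transient ectopic regions did. The neighbours were picked by the same GATA6 class that chose the members, so these contrasts are not independent of the rule. An Early region was found within 10 kb of 467 members (32.5%, all regions 23.8%), against 22.5% of Late regions without PTFs (0.73 ± 0.0842, adjusted p = 1.39e-07, 20 of 20 chromosomes) and 22.7% of Transient ectopic regions (0.71 ± 0.135, adjusted p = 8.49e-05). Early ectopic regions had 31.0% (0.10, -0.10 to 0.31, adjusted p = 0.366; 0.27 with width as a covariate, adjusted p = 0.0212), and Late regions with PTFs from d0 had 30.8% (25.4 to 36.8, not tested). Within 50 kb the share was 64.6% of members, 65.2% of Late regions with PTFs from d0 and 56.4% of all regions. Another member was within 10 kb of 151 members (10.5%) and within 100 kb of 428 (29.8%), so neighbouring members are not independent. All chromosomes except Y held members, from 36 on X to 112 on chromosome 10.

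**Figure D5:**
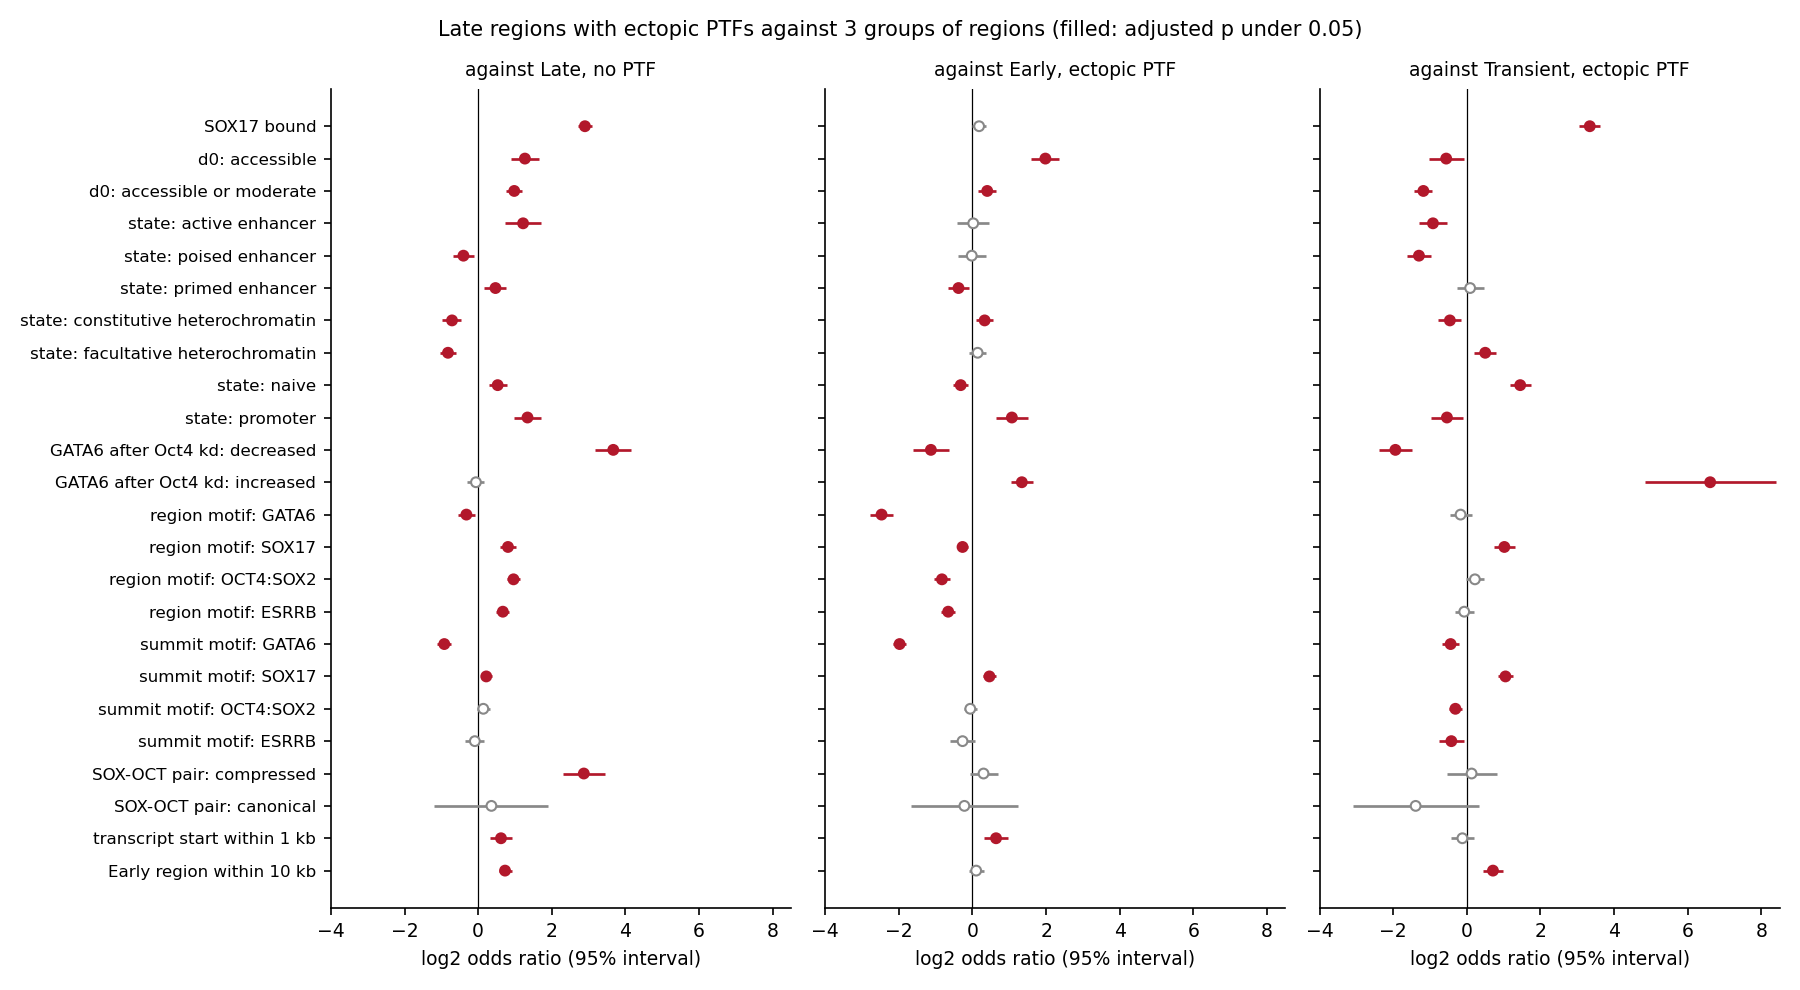
Log2 odds ratio (x axis) with 95% interval for each property (rows) of the members against 3 groups of regions, 1 per panel, with filled points where the adjusted p is under 0.05. SOX17 binding is at 2.90, 0.18 and 3.34 from left to right, and increased GATA6 binding after Oct4 knockdown at -0.06, 1.34 and 6.61.

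Lists of genes of PrE and of pluripotency were then asked which of their members have such a region within 100 kb of a transcript start. Of 21924 protein-coding genes, 3356 (15.3%) had one. The counts by list are a description, since the lists were drawn up with results of these data known and long or isolated genes differ in how many regions lie nearby. For comparison, 65.7% of protein-coding genes had any Late region and 48.5% any ectopic region within 100 kb.

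Among the regulators and early markers of PrE, 6 of 9 genes had a member: Dab2, Foxa2, Foxq1, Gata6, Pdgfra and Sox7. All 9 had a Late region and all 9 an ectopic region of some kind. Foxa2, a forkhead factor of endoderm, had 6 members within 100 kb, the most of any protein-coding gene, among 27 GATA6 regions of any class there. Dab2, an endocytic adaptor of PrE, had 5 among 15. The 3 genes next in that order by name, each with 4, were Anapc15-ps (of 18), Arhgef28 (of 13) and D630045J12Rik (of 24), so the order follows the number of members and not their share of nearby regions.

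The Foxa2 members lay at 85, 14725, 55521, 60571, 77958 and 83656 bp from its start. All 6 were SOX17-bound and 5 were closed at d0, the exception being the one at the start, which was moderately accessible and in the poised state. GATA6 binding increased after Oct4 knockdown in the member at 60571 bp, in an intron of 9030622O22Rik, and was unchanged in the others. The 5 Dab2 members, at 342 to 63414 bp, were all SOX17-bound and closed, and binding increased in those at 342 and 39555 bp. Pdgfra, a receptor of the PrE surface, had members at 322 bp, without SOX17 and moderately accessible, and at 1193 bp, SOX17-bound, closed and in facultative heterochromatin.

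Basement membrane genes, which PrE cells express strongly, had a member in 8 of 10: Col4a1, Col4a2, Hspg2, Lama1, Lamb1, Lamc1, Nid2 and Sparc. Col4a1 and Col4a2 share 1 region (chr8:11367027-11368163, in a Col4a2 intron, SOX17-bound, closed, naive, increased after knockdown). Lama1, the laminin alpha chain, had 3 members in its own introns, at 14116, 15935 and 18587 bp, of which only the last was SOX17-bound and closed and had increased GATA6 binding after knockdown. By the nearest transcript start instead of distance, 4 of the 10 had a member. Endocytic receptors and carrier proteins of endoderm had a member in 4 of 10 genes, Apoe, Cubn, Lrp2 and Rbp4, and in 2 by the nearest start. Cubn, which encodes cubilin, had 3, all SOX17-bound, closed and unchanged after knockdown, at 248, 8716 and 9328 bp.

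Pluripotency genes had a member in 4 of 12 (Klf5, Nanog, Tbx3 and Tfcp2l1) and in 2 within 50 kb, while 11 of the 12 had an ectopic region of some kind. The Nanog member, between genes 64038 bp from the Nanog start and 16698 bp from that of Dppa3, was closed, in constitutive heterochromatin, and had decreased GATA6 binding after Oct4 knockdown. FGF signalling genes had one in 2 of 9, Fgfr2 and Spry2, of which the Spry2 member was a moderately accessible active enhancer with increased binding. In all, 44 members lay near a listed gene, of which 40 were SOX17-bound, 30 closed, 9 increased and 2 decreased after knockdown. The other decreased one was 18131 bp from Lrp2, the gene of the megalin receptor.

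Motifs at the promoters of listed genes are printed to show the range of GATA6 matches at these sites (best GATA6 motif in capitals).

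Dab2, chr15:6389937-6390983, score 14.42, minus strand: ttgttcttcCCCAGATAAGAAAacagaatt
Cubn, chr2:13491578-13492558, score 8.833, minus strand: atgcacagtATGAGATAAAGAAatcacttc
Foxa2, chr2:148045430-148046847, score 7.917, minus strand: ctgttagccTTGAGATAATATTaactttgt
Pdgfra, chr5:75156840-75157493, score 7.676, plus strand: tttagcatTTTAGATAGGAGTtttgtcatt
Lamc1, chr1:153332699-153333389, score 6.657, plus strand: ggcggtggGCCAGAGAAGCGAgatgggagg

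The Dab2 match was above the mean best score of members with a GATA6 motif (9.41) and the other 4 lay below it. The Lamc1 match, at the only accessible one of these 5 sites, does not contain the letters GATA.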

How the data were processed

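The members and the gene lists were chosen with earlier results of these data known. Values came from 1 deposited table with a row for each of 42403 GATA6 regions, in which 34 of 105 columns were used. Left out were 59 signal columns that belong to no MNase library and 12 that sort motif values into groups. Per the study's methods and processing notes, the authors trimmed reads with cutadapt, aligned them to mm10 with Bowtie2, pooled replicates for MACS2, kept GATA6 peaks found in every replicate, and clustered regions by GATA6 signal. The deposited classes of SOX17 and PTFs rest on called peaks, d0 accessibility on ATAC-seq and the histone state on clustered public marks. The authors assigned the knockdown response with DESeq2. Each deposited motif score is a FIMO log-odds value for the best match, and the other deposited columns are class names, positions in bp and the number (count) of motif matches.

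Score matrices were recovered by least squares from the deposited best motifs, with a largest residual of 5.07e-05, and used to scan summit windows (100 bp on each side). The recovered matrices gave the deposited presence and best score in 100.0% of regions. Each property was fitted by a logistic model with 9 levels (GATA6 cluster by PTF class), with sandwich errors clustered by 21 chromosomes (20 degrees of freedom), and interactions formed a family of 6 tests. Motif scores were compared by a linear model with a 95% interval. The fit was run on simulated data with known odds ratios, in which each chromosome shifted all classes alike. Those data cannot show whether the clustered errors cover chromosome differences between classes. Widths, accessibility, SOX17 class, promoter distance, motif thresholds and chromosomes were varied. Summits were annotated with GENCODE M21. Sequence was read from GRCm38. Python 3.11.15, numpy 2.4.6, pandas 2.3.3 and scipy 1.17.1 were used.

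Regions were named by this rule: the member with the best score of each of 3 motifs, the 3 members of each knockdown response with the best OCT4:SOX2 score, the member nearest to each listed gene within 100 kb, and the 5 protein-coding genes with the most members. Other members of listed genes and the compressed pairs printed were chosen after their values were seen. Sequence from chromosome 18 and 1 gene of the list of PrE regulators are not reported here, and the counts leave that gene out.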

Additional observations from a re-analysis of the deposited data

Results flagged for a closer look

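4 properties differed between Late and Early regions in how far ectopic regions stood from regions of the same cluster without PTFs, by a test of the interaction in 1 logistic model (adjusted over 6 tests). For accessible or moderate chromatin at d0 the log2 odds ratio was 0.98 in Late and -0.22 in Early regions, a difference of 1.19 ± 0.127 (SE, adjusted p = 5.5e-08). For decreased GATA6 binding after Oct4 knockdown it was 3.67 in Late and 2.02 in Early regions, a difference of 1.65 ± 0.222 (adjusted p = 1.04e-06). The Late ratio sets 6.13% of members against a small share, 0.51% of Late regions without PTFs (64 of 12558). Binding decreased in 12.5% of Early ectopic regions, so the larger ratio in Late regions is not a larger share. For the SOX17 motif the log2 odds ratio was 0.81 and 1.11, a difference of -0.30 ± 0.0737 (adjusted p = 0.00125), and for the OCT4:SOX2 motif 0.96 and 1.28, a difference of -0.32 ± 0.133 (adjusted p = 0.0424). Neither motif difference passed among summits over 1 kb from a transcript start (-0.17 for SOX17 and -0.18 for OCT4:SOX2) or among closed regions (-0.07 and -0.17), and that for OCT4:SOX2 also did not pass with width as a covariate (-0.30), with only best motifs within 100 bp of the summit (-0.01), or in 13 of the 21 fits that each left out 1 chromosome. For SOX17 binding (0.05, adjusted p = 0.57) and increased GATA6 binding (-0.12, adjusted p = 0.57) no difference between the clusters passed the test.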

How the results depend on the processing

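No paired analysis was possible because no column used here carries a value of a library. Whether the 59 unused signal columns, which belong to no MNase library, would allow a paired analysis was not tested. Because the columns used hold no library values, leaving out a replicate was not run. Chromosomes were left out instead, for 66 of the 90 tested or estimated differences, of which 54 kept direction and side of the threshold in all 21 fits. The lists of values that follow are log2 odds ratios of the members against the named group unless another quantity is named, and the cause of each change was not tested. The peak, accessibility and knockdown classes depend on sequencing depth. The study reports only an average over its ChIP-seq libraries, and the depth of each library is unknown here, so its effect on the classes was not tested.

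With log2 width as a covariate, increased binding against Late regions without PTFs was -1.11 and SOX17 binding against Early ectopic regions 0.77, both now past the threshold, like an Early region within 10 kb against Early (0.27) and GATA6 motifs against Transient (-0.48). Accessible chromatin against Transient (-0.49), constitutive heterochromatin against Transient (-0.24), the naive state against Early (-0.02) and Late without PTFs (0.10), poised enhancers against Late without PTFs (-0.18), primed enhancers against Early (-0.21) and Late without PTFs (0.21), ESRRB motifs (0.02) and SOX17 motifs (0.13) against Late without PTFs and the OCT4:SOX2 interaction (-0.30) no longer passed. Constitutive heterochromatin turned against Early (-0.35) and Late without PTFs (0.09), facultative heterochromatin against Early (-0.09) and SOX17 motifs against Early (0.28). Score differences moved for GATA6 to -1.36 (Early) and -0.97 (Late without PTFs) and for SOX17 to 0.18 (Early) and 0.06 (Late without PTFs).

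Among summits over 1 kb from a transcript start, SOX17 binding against Early passed (0.42). Against Early, accessible or moderate chromatin (0.12), the naive state (-0.18) and SOX17 motifs (-0.11) no longer passed, nor did accessible chromatin against Late without PTFs (0.79), facultative heterochromatin (0.35) and promoters (-0.93) against Transient, and the OCT4:SOX2 (-0.18) and SOX17 motif (-0.17) interactions. Poised enhancers against Early (0.02), primed enhancers against Transient (-0.03) and the interaction for increased binding (0.0) turned.

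Among closed regions, SOX17 binding (0.60) and facultative heterochromatin (0.29) against Early passed. Transcript starts within 1 kb against Early (0.15) and Late without PTFs (0.03), active enhancers (1.07), promoters (0.43) and GATA6 motifs (-0.19) against Late without PTFs, the naive state (-0.20) and SOX17 motifs (-0.01) against Early, and the OCT4:SOX2 (-0.17) and SOX17 motif (-0.07) interactions no longer passed. Reversed were increased binding against Late without PTFs (0.02) and its interaction (0.09), transcript starts (0.76), active enhancers (1.0), facultative heterochromatin (-0.01), primed enhancers (-0.38), promoters (0.41) and ESRRB motifs (0.11) against Transient, and active enhancers (-0.05), promoters (-0.31) and the canonical pair (0.10) against Early.

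Among SOX17-bound regions, increased binding against Late without PTFs (-0.90), transcript starts (-0.50) and OCT4:SOX2 motifs (0.73) against Transient passed. Accessible or moderate chromatin (0.23) and the naive state (-0.23) against Early, and primed enhancers (0.24), GATA6 motifs (-0.24) and SOX17 motifs (0.18) against Late without PTFs, no longer passed. Active enhancers against Early (-0.01), and GATA6 motifs (0.30) and the compressed pair (-0.60) against Transient, turned.

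With the best motif within 100 bp of the summit, ESRRB (-0.32) and GATA6 (-0.58) against Transient passed, ESRRB against Early (-0.07) and the OCT4:SOX2 interaction (-0.01) did not, and ESRRB (-0.12), OCT4:SOX2 (-0.19) and SOX17 (-0.27) against Late without PTFs, OCT4:SOX2 (0.20) and SOX17 (0.44) against Early and OCT4:SOX2 against Transient (-0.61) turned. In windows with 200 bp on each side, ESRRB (-0.12) and OCT4:SOX2 (-0.01) against Transient no longer passed and ESRRB against Late without PTFs was 0.11. With matches at or above the median best score, OCT4:SOX2 against Late without PTFs passed (0.53), SOX17 against it (0.15) and ESRRB against Transient (-0.36) did not, and ESRRB against Late without PTFs (0.10) and OCT4:SOX2 against Early (0.02) turned. The mean score of all motifs gave -0.59 (GATA6, Early), -0.43 (GATA6, Transient), 0.08 (OCT4:SOX2, Late without PTFs), 0.16 (SOX17, Transient) and -0.03 (SOX17, Late without PTFs, turned).

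For the pairs, ATGC as OCT core gave 1.08 for the canonical pair against Late without PTFs, the summit window -0.87 (turned) there, -3.49 against Transient and 0.79 for the compressed pair against Early, and the matrix cores 1.31 for the last. The gene counts moved at 50 kb to 2 (pluripotency), by nearest start to 4 (basement membrane) and 2 (transport), with all Late regions to 7 (FGF), 9 (transport) and 7 (pluripotency), and with all ectopic regions to 7 (transport) and 11 (pluripotency).

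Leaving out single chromosomes gave, against Early, 0.13 to 0.22 for SOX17 binding (passed without 16 or 18), -0.07 to 0.11 for active and -0.15 to 0.05 for poised enhancers, 0.24 to 0.39 for the compressed pair (passed without 10) and -0.74 to 0.08 for the canonical one. Against Transient they gave -0.68 to -0.45 for accessible chromatin (lost in 7 fits), -0.64 to -0.46 for promoters (lost without 4, 5 or 11) and 0.17 to 0.28 for OCT4:SOX2 motifs (passed without 9 or 16). Against Late without PTFs they gave -0.11 to 0.01 for increased binding and -0.19 to 0.57 for the canonical pair. The interactions ranged from -0.19 to 0.01 for increased binding and -0.37 to -0.25 for OCT4:SOX2 motifs, which did not pass in 13 fits.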

Other observations

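Within the members, several properties that the report gives one by one differed with region width. SOX17 was bound at 268 of the 364 narrowest members (73.6%) and at 352 of the 359 widest (98.1%), and the closed shares of the same groups were 67.6% and 80.8%. The best GATA6 score averaged 8.86 in the narrowest and 9.98 in the widest members. These are shares within 1 set of regions, without a test, and their causes were not tested.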
